A study of Mus musculus with 5 samples.

Results

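Cxcl14 fibroblasts are fibroblasts of the pancreas and of its early tumours that carry RNA of Cxcl14 and its companions Ptn, Lpl, Mest and Dpep1 above RNA of the adventitial genes Pi16, Mfap5, Ptx3, Has1 and Dpp4. The single-cell series held 5 mouse libraries, 1 per group, and the cells described here come from the early KIC tumour and from the normal pancreas. A cell barcode was kept with at least 200 detected genes and at most 20% mitochondrial UMIs (unique molecular identifiers, each standing for 1 captured transcript). It passed the fibroblast gate with at least 30 UMIs of Col1a1, Col1a2, Col3a1 and Dcn per 10000, no Ptprc and at most 2 UMIs of the mesothelial genes Upk3b, Lrrn4, Gpm6a and Nkain4. A gated barcode was called a Cxcl14 fibroblast when the first gene sum was at least 2 UMIs and larger than the second, and a Pi16 fibroblast when the second sum was at least 2 UMIs and larger than the first. Members were thus chosen by their measured UMIs of these 10 genes, and the levels of those genes in them are a description. The rule found 611 Cxcl14 fibroblasts among 1373 gated barcodes of early KIC and 101 among 394 of normal pancreas, which is 712 of the 10718 kept barcodes of the whole series. The gate left 689 Pi16 fibroblasts in early KIC and 289 in normal pancreas.

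The labels give an age of 40 days for early KIC and of 60 days for normal pancreas, with no treatment and a mixed C57BL/6 and FVB background for both. As the name is generally used, KIC mice lose Cdkn2a in the pancreatic epithelium through a pancreas-specific Cre, so Cre is directed at the epithelium and not at the fibroblasts. The labels name the model without giving its alleles, and they do not say whether a library came from a single animal. Libraries were made with the 10x Genomics 3′ kit, version 2. Age differs along with the group, so age and tumour cannot be told apart here, and a group of 1 library shows no spread between animals. No p-value is given for this reason. Ranges in parentheses are exact 95% intervals (Poisson for levels, binomial for ratios, Clopper-Pearson for shares) and cover counting error only.

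Fibroblasts build the connective tissue between the acini, ducts, vessels and nerves of the pancreas. Those marked by Pi16 and Dpp4 are known in many mouse tissues as adventitial fibroblasts that lie around vessels and ducts, whereas fibroblasts with Col4a1, Col15a1 and lipid-handling genes are known as parenchymal ones that help to lay down basement membrane. Cxcl14 is a chemokine, pleiotrophin (Ptn) a heparin-binding growth factor, Lpl the lipase that releases fatty acids from lipoproteins, Mest an imprinted gene of growing mesenchyme, and Dpep1 a membrane dipeptidase. In pancreatic cancer, fibroblasts around the tumour are known to take on inflammatory and contractile programmes.

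Promoter windows are printed for 4 genes on which the results turn, as RefSeq gives them for GRCm38.p6, each 300 bases long with 250 bases before and 50 after the annotated start, read 5′ to 3′ on the gene's strand. All 4 genes lie on the minus strand. The Cxcl14 window at chr13:56296502-56296801 is shown because Cxcl14 names these cells, and its capitals mark the bases from the annotated start on. The Col4a1 window at chr8:11312777-11313076 is shown with the 78 bases that it shares with the window of Col4a2 in capitals. These genes encode chains of basement membrane collagen IV, and they start 21 bases apart on opposite strands. Tmem176b has 3 windows, and the first listed, at chr6:48841088-48841387, is shown. Its capitals mark the 155 bases shared with the first listed of 2 windows of Tmem176a, the neighbour on the opposite strand. Saa3, at chr7:46715627-46715926, is shown with its match to TTGCNNAA, the core bound by C/EBP factors, in capitals.
Cxcl14: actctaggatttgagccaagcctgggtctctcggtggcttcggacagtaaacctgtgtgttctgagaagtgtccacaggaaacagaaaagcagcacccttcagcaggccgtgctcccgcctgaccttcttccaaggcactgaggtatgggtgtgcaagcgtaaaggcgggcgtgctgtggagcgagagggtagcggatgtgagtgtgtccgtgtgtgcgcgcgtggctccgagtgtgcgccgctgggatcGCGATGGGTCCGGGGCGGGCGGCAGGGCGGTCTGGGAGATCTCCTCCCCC
Col4a1: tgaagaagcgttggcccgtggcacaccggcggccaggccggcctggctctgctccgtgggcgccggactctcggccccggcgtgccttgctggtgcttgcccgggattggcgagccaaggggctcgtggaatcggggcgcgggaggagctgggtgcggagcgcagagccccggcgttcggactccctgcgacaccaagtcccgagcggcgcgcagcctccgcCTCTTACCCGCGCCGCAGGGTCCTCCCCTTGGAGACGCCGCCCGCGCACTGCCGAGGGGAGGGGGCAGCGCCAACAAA
Tmem176b: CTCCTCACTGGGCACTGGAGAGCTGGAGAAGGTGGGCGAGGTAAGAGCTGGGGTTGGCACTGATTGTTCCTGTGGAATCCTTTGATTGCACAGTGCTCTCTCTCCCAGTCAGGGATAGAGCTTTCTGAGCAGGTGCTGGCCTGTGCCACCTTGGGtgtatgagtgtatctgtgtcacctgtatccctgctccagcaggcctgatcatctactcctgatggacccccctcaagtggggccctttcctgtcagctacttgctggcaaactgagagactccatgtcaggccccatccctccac
Saa3: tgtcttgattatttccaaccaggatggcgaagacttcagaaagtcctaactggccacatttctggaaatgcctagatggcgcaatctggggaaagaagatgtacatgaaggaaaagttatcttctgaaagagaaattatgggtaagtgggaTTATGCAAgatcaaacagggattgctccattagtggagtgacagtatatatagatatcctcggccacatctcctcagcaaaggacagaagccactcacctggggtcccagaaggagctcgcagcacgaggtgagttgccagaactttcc

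The libraries differed in depth and make-up. Per barcode, Cxcl14 fibroblasts of early KIC had medians of 1544 UMIs and 803 genes and those of normal pancreas 4069 UMIs and 1547 genes. Levels below are UMIs summed over the barcodes of a class per 1000000 UMIs of that class (CPM), from totals of 1060934 in early KIC and 424887 in normal pancreas. A summed level can differ through the share of cells with a transcript or through the amount per cell. Xist, the RNA of the inactive X chromosome, was found without Y-linked RNA in 550 Cxcl14 fibroblasts of early KIC and 67 of normal pancreas, and Y-linked RNA without Xist in 0 and 16. The normal library thus held barcodes with either sign of sex and may hold cells of more than 1 mouse, and the part of sex in the results was not tested beyond a repeat with Xist-positive barcodes. Early KIC and normal pancreas shared 11 barcodes, none of them a Cxcl14 fibroblast in both. RNA of other cell classes was present as well. The summed level of 10 macrophage markers was 797 CPM in Cxcl14 fibroblasts of early KIC and 18.8 CPM in those of normal pancreas, where 6 of the 10 were at 0. Endocrine hormone genes, 7 in number, summed to 5875 and 619 CPM, 10 endothelial markers to 404 and 202 CPM, and 10 epithelial markers to 237 and 21.2 CPM in the same order. Acinar enzyme RNA made up 5.93% of UMIs in Cxcl14 fibroblasts of early KIC and 5.26% in those of normal pancreas. For genes named as higher in early KIC, the level in kept barcodes that did not pass the gate ("outside the gate") is therefore given where it exceeds that in the Cxcl14 fibroblasts.

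Cxcl14 fibroblasts made up 44.5% (41.9 to 47.2) of gated barcodes in early KIC and 25.6% (21.4 to 30.3) in normal pancreas. After each barcode was thinned to 1000 UMIs, which left out no gated barcode, the shares were 41.7% (39.1 to 44.4) in early KIC and 22.8% (18.8 to 27.3) in normal pancreas. Pi16 fibroblasts made up 50.2% of gated barcodes in early KIC and 73.4% in normal pancreas. The intervals of the Cxcl14 shares did not overlap between the libraries, with or without thinning. They cover counting error only, so this does not speak to the spread between animals or to the conditions. The late tumours held few gated barcodes. Their labels give an age of 60 days for late KIC and late KPfC and of 6 months for late KPC. The same rule found 4 of 50 in late KIC, 10 of 50 in late KPfC and 8 of 94 in late KPC, too few to describe. Over all gated barcodes, Cxcl14 itself stood at 205 CPM in normal pancreas, 584 CPM in early KIC and 264 CPM in late KIC, whereas the other late tumours had 22.9 CPM (KPfC) and 94.2 CPM (KPC).

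**Figure D1:**
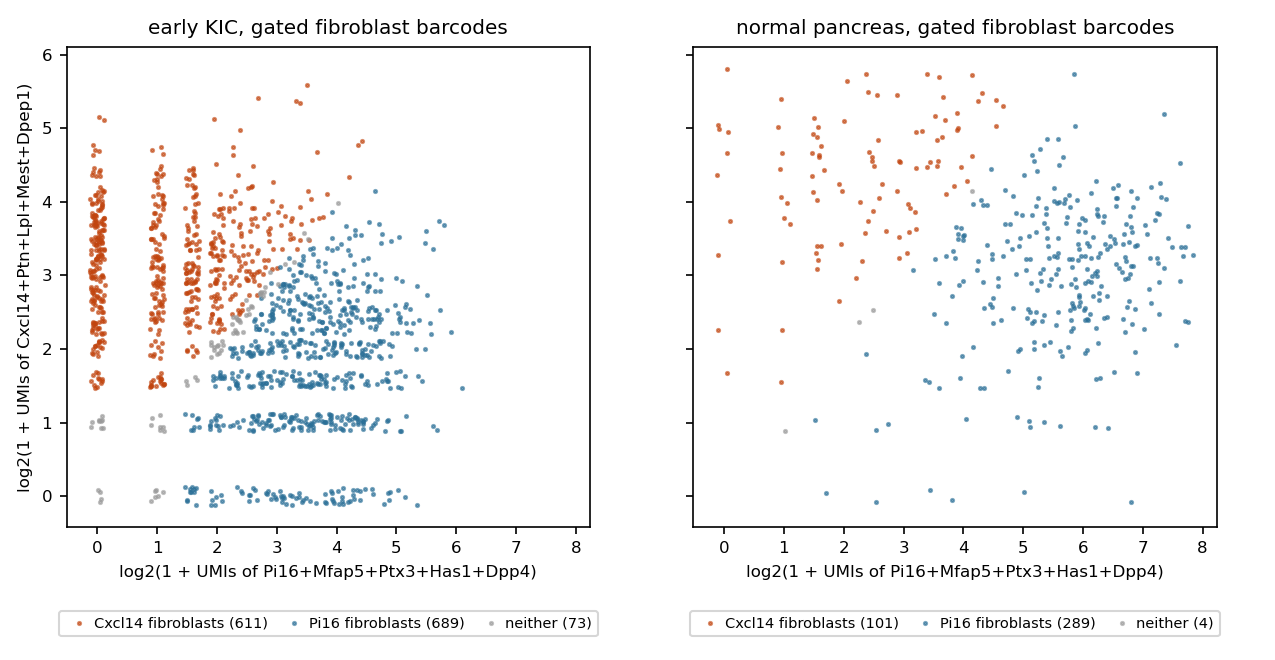
Gated fibroblast barcodes of early KIC (left) and normal pancreas (right), with log2(1 + UMIs) of the adventitial sum on the x axis and of the Cxcl14 sum on the y axis; points are spread slightly at random so that equal counts can be seen. Colours give the class and the legend its number of barcodes: in early KIC the classes meet along the diagonal, and in normal pancreas few barcodes lie near it.

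The name of the cells was checked against their markers. A Cxcl14 UMI was found in 339 of the 611 cells of early KIC (55.5%, 51.4 to 59.5) and in 46 of the 101 cells of normal pancreas (45.5%, 35.6 to 55.8). The remaining cells entered through the other genes of the rule, so a detected Cxcl14 transcript is not what all of them share. In Pi16 fibroblasts a Cxcl14 UMI was found in 7.40% of barcodes in early KIC and 3.81% in normal pancreas, and outside the gate in 5.24% and 0.803%. The chemokine Ccl11, which was not in the rule, was found in 68.7% of Cxcl14 fibroblasts in early KIC and 97% in normal pancreas. Gsn, an actin-severing protein, was found in 99.3% of those of early KIC and in all 101 of normal pancreas, and Col4a1 in 83.1% and 94.1%. All 5 markers were higher in Cxcl14 than in Pi16 fibroblasts in both libraries, which describes the split and tests nothing.

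The levels of the markers were as follows. Cxcl14 (chromosome 13, 56288643 to 56296551, GRCm38) stood at 1383 CPM (1313 to 1455) in Cxcl14 fibroblasts and 51.6 CPM (40.7 to 64.5) in Pi16 fibroblasts of early KIC. In normal pancreas the levels were 925 CPM (836 to 1021) and 23.5 CPM (16.7 to 32.1). Gsn had 15967 CPM in Cxcl14 fibroblasts and 8554 CPM in Pi16 fibroblasts of early KIC, against 34195 and 19244 CPM in normal pancreas. Ccl11 had 1262 and 723 CPM in these classes of early KIC, against 3239 and 1814 CPM in normal pancreas. Gsn and Ccl11 were thus lower in early KIC than in normal pancreas in both kinds of fibroblast, 2.14-fold (2.1 to 2.19) and 2.57-fold (2.38 to 2.77) in Cxcl14 fibroblasts. Their excess over Pi16 fibroblasts was alike in the libraries, 1.87-fold in early KIC and 1.78-fold in normal pancreas for Gsn. For Ccl11 it was 1.75-fold and 1.78-fold.

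The other rule genes varied in their own way. Ptn had 985 CPM (926 to 1047) in Cxcl14 fibroblasts of early KIC and 447 CPM (386 to 516) in those of normal pancreas, against 116 and 29.5 CPM in Pi16 fibroblasts. Mest had 365 CPM in early KIC and 240 CPM in normal pancreas. Lpl had 1821 and 2323 CPM and Dpep1 861 and 1495 CPM in Cxcl14 fibroblasts of early KIC and of normal pancreas. Ptn, Mest and Cxcl14 were thus higher in early KIC, and Lpl and Dpep1 lower. Pi16 was at 89.5 CPM in Cxcl14 fibroblasts of early KIC and 91.8 CPM in those of normal pancreas, and in Pi16 fibroblasts it was at 1129 and 3502 CPM.

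**Figure D2:**
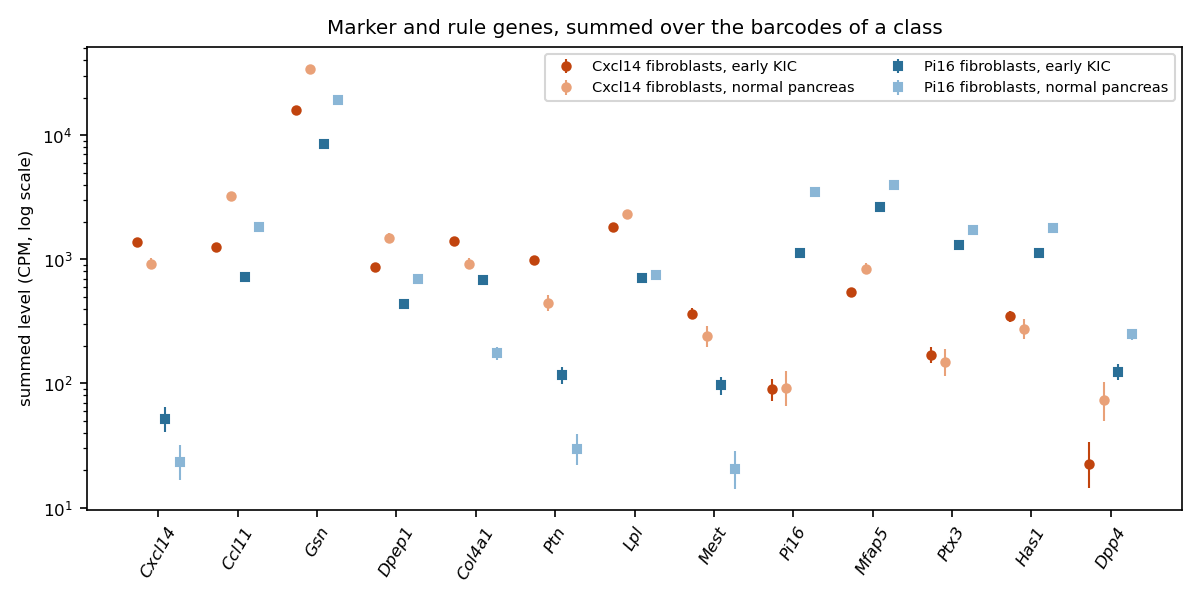
Summed levels in CPM (log scale) of the 5 markers and of the remaining rule genes in Cxcl14 fibroblasts (circles) and Pi16 fibroblasts (squares) of early KIC and normal pancreas; bars are exact 95% Poisson intervals. Gsn, Ccl11 and Dpep1 are lower in early KIC in both classes, whereas Cxcl14, Ptn, Mest and Col4a1 are higher there in both.

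More barcodes lay near the threshold in early KIC, where barcodes were shallower, and the part of depth in this was not tested. There, 167 Cxcl14 fibroblasts had a first gene sum only 1 to 3 UMIs above the second, and 224 other gated barcodes lay 0 to 3 UMIs on the other side. Just inside the threshold Cxcl14 was at 230 CPM and just outside it at 113 CPM, against 1827 CPM further inside and 41.8 CPM further outside. Col4a1 was at 1185 CPM just inside and 1051 CPM just outside, and Smoc2 at 447 and 231 CPM. In normal pancreas 8 barcodes lay just inside and 18 just outside, with Cxcl14 at 296 and 123 CPM. Cxcl14 fibroblasts without any UMI of the adventitial genes numbered 199 in early KIC (32.6%) and 10 in normal pancreas (9.90%), at 1453 and 3554 median UMIs per barcode.

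Among Cxcl14 fibroblasts, those with and without a detected Cxcl14 transcript differed in some genes and not in others. Cells without one had to enter through the other genes, so this is a description. Their depth was similar, with medians of 1520 and 1588 UMIs in early KIC and 3658 and 4288 in normal pancreas. Smoc2, a secreted calcium-binding matrix protein, had 925 CPM with a Cxcl14 UMI and 432 CPM without one in early KIC, and 1243 and 522 CPM in normal pancreas. Dlk1, the preadipocyte factor that keeps adipocyte precursors from maturing, had 96.7 and 35.3 CPM in early KIC and 114 and 0 CPM in normal pancreas. Bmp4, a bone morphogenetic protein, had 136 and 64.4 CPM in early KIC and 343 and 78.7 CPM in normal pancreas. Fn1 and the semaphorin Sema3c ran the other way, with Fn1 at 463 and 1088 CPM in early KIC and 60.0 and 539 CPM in normal pancreas. Ptn had 981 CPM with a Cxcl14 UMI and 990 CPM without one in early KIC, and 485 and 418 CPM in normal pancreas. Cells without a Cxcl14 UMI still stood apart from Pi16 fibroblasts, where Smoc2 was at 118 CPM in early KIC and 152 CPM in normal pancreas.

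**Figure D3:**
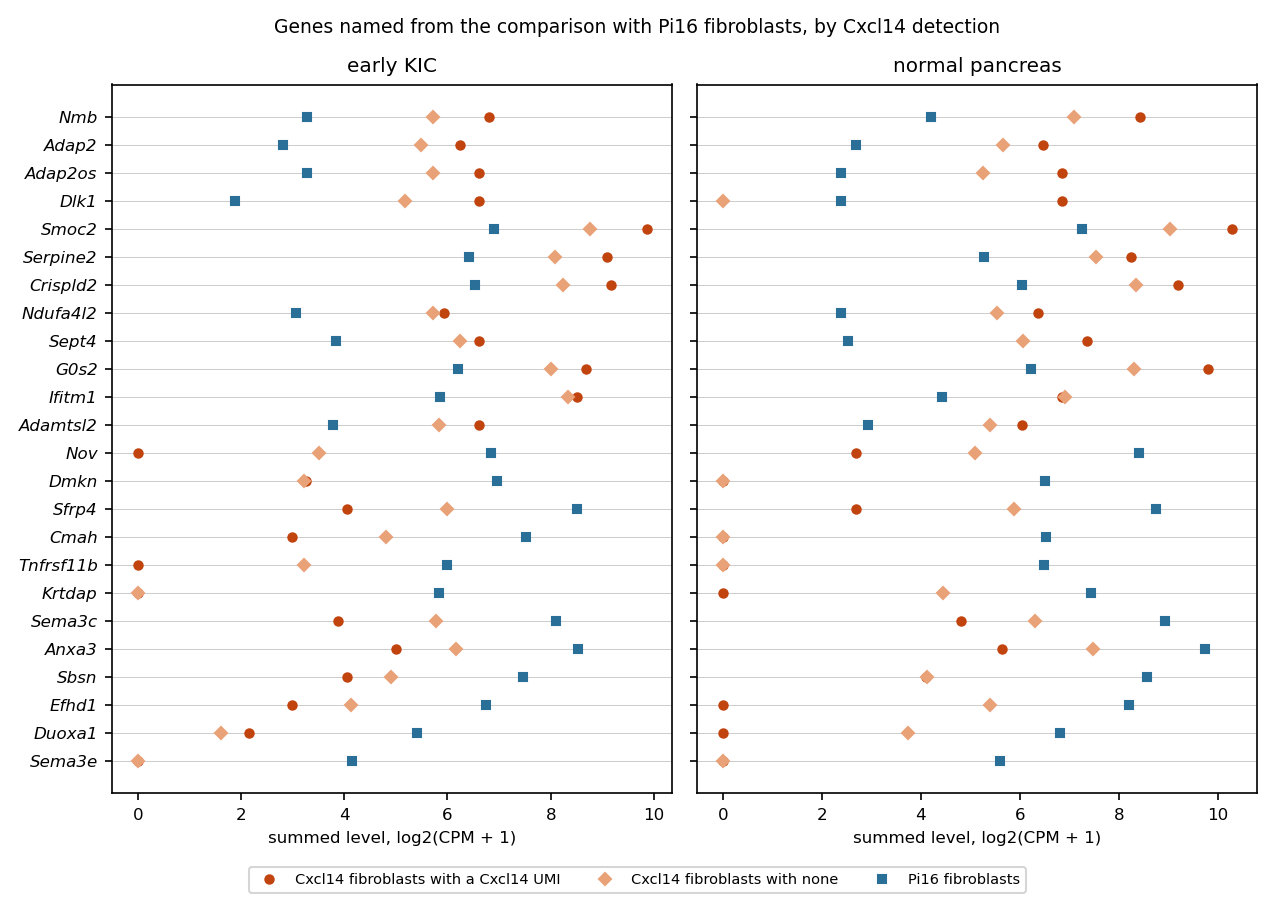
Summed levels on the log2(CPM + 1) scale of the 24 genes named from the comparison with Pi16 fibroblasts, in early KIC (left) and normal pancreas (right), for Cxcl14 fibroblasts with a Cxcl14 UMI (339 and 46 barcodes), Cxcl14 fibroblasts with none (272 and 55) and Pi16 fibroblasts. For Smoc2 the levels are 925, 432 and 118 CPM in early KIC, and cells without a Cxcl14 UMI lie between the other classes for most genes.

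Set against Pi16 fibroblasts of the same library, Cxcl14 fibroblasts had more RNA of Nmb, Smoc2, Apoe, Col4a1 and Col4a2 in both libraries. They had less RNA of adventitial genes in both. A gene was counted as higher or lower when its ratio was at least 2-fold with at least 20 UMIs over both sides. Of 7130 genes measured in both libraries, 168 (2.36%) were higher in Cxcl14 fibroblasts in both and 180 (2.52%) lower in both. In early KIC alone 5.55% of genes were higher and 5.07% lower, and in normal pancreas 7.11% and 8.82%. The median log2 ratio of all genes was 0.01 in early KIC and 0.03 in normal pancreas. These contrasts are those of the rule itself and are a description.

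The genes furthest up in both libraries were led by secreted and signalling proteins. Nmb, the precursor of the peptide neuromedin B, had 83.9 CPM in Cxcl14 fibroblasts and 8.71 CPM in Pi16 fibroblasts of early KIC, against 226 and 17.5 CPM in normal pancreas. The ratios were 9.63-fold (5.36 to 18.8) and 12.9-fold (8.46 to 20.3). Dlk1 had 68.8 and 2.68 CPM in early KIC and 49.4 and 4.21 CPM in normal pancreas, but rests on only 73 and 21 UMIs in Cxcl14 fibroblasts. Smoc2 (chromosome 17, 14279506 to 14404790) had 701 CPM in Cxcl14 fibroblasts and 118 CPM in Pi16 fibroblasts of early KIC, a ratio of 5.95 (5.04 to 7.05). In normal pancreas it had 833 and 152 CPM, a ratio of 5.49 (4.66 to 6.48).

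Serpine2, an inhibitor of serine proteases, was 4.96-fold (4.06 to 6.09) higher in early KIC and 6.27-fold (4.53 to 8.72) higher in normal pancreas. Crispld2, a secreted glycoprotein, was 4.92-fold and 6.73-fold higher, and G0s2, which inhibits the lipase of lipid droplets, 4.70-fold and 7.59-fold higher. These genes were each measured with over 100 UMIs in Cxcl14 fibroblasts of either library. Ifitm1, an interferon-induced membrane protein, was at 343 and 56.9 CPM in Cxcl14 and Pi16 fibroblasts of early KIC and at 118 and 20.5 CPM in those of normal pancreas. Adamtsl2, a matrix protein that binds fibrillin, Sept4, a septin, and Ndufa4l2 were also among the 12, at 6.15-fold, 6.47-fold and 7.67-fold in early KIC. Ndufa4l2, a mitochondrial protein induced by low oxygen, is also on the pericyte list, and its level in Cxcl14 fibroblasts was 56.5 CPM in early KIC and 61.2 CPM in normal pancreas. Adap2 and Adap2os, also among the 12, overlap on opposite strands of chromosome 11. No source used here says whether counting used strand, so it is not known here whether their reads were kept apart.

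Of the 12 genes furthest down in both libraries, Sfrp4, Sema3c, Anxa3 and Efhd1 are on the adventitial list. Nov, a matricellular protein of the CCN family, had 4.71 CPM in Cxcl14 fibroblasts and 113 CPM in Pi16 fibroblasts of early KIC, and 21.2 and 342 CPM in normal pancreas. Sfrp4, a secreted inhibitor of Wnt signalling, had 36.8 and 362 CPM in early KIC and 35.3 and 433 CPM in normal pancreas. The annexin Anxa3 was 7.48-fold lower in early KIC and 7.04-fold lower in normal pancreas, and Sema3c 8.49-fold and 8.64-fold lower. Several of the 12 were not detected in Cxcl14 fibroblasts of a library. Tnfrsf11b, which encodes the RANKL decoy osteoprotegerin, had 4 UMIs in early KIC and 0 in normal pancreas, so that it was at least 12.5-fold lower than in Pi16 fibroblasts of normal pancreas. Krtdap, with 0 UMIs in early KIC, was at least 19.9-fold lower there. Sema3e had 0 UMIs in Cxcl14 fibroblasts of both libraries, which puts it at least 5.92-fold lower in early KIC and at least 6.74-fold lower in normal pancreas. Such bounds are taken against 3 counts over the class. Dmkn, Cmah, Sbsn, Efhd1 and Duoxa1 completed the 12, at 8.13-fold to 14.7-fold lower in early KIC.

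**Figure D4:**
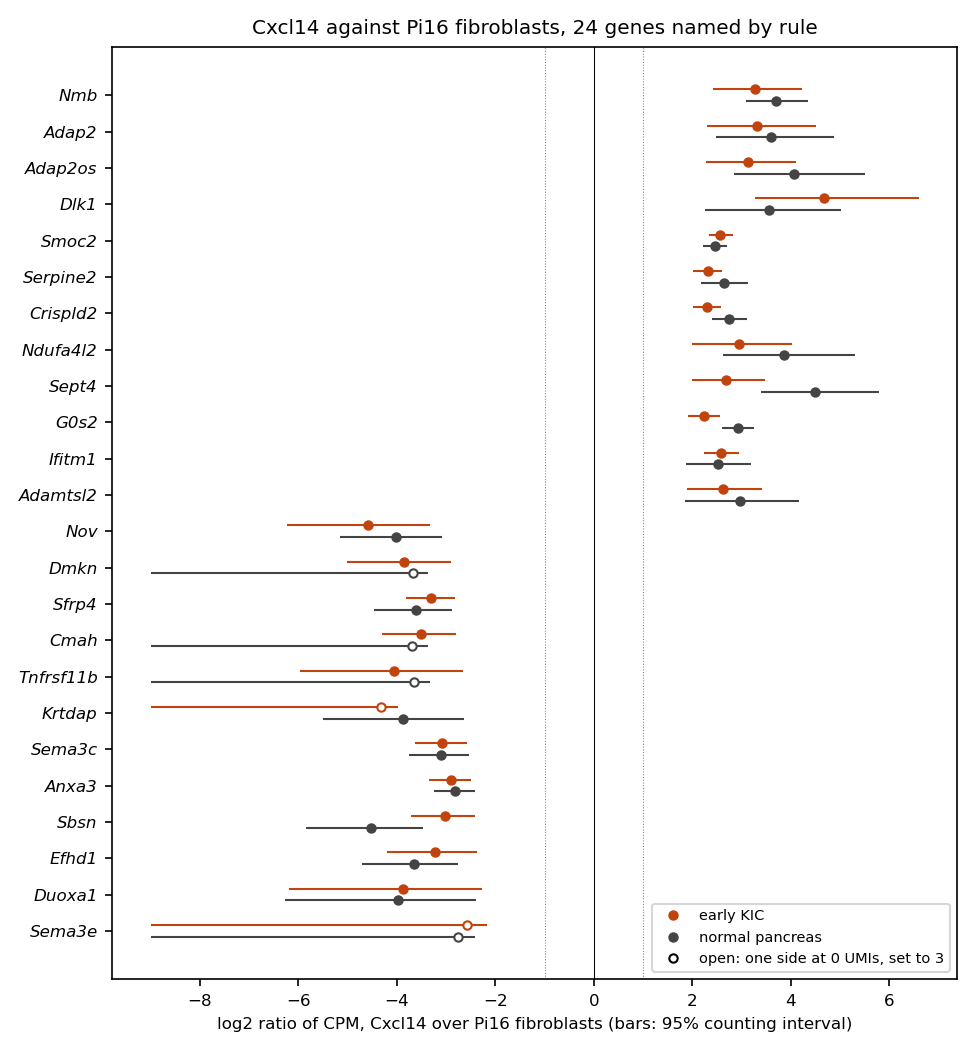
Log2 ratio of CPM in Cxcl14 over Pi16 fibroblasts for the 12 genes furthest up and the 12 furthest down in both libraries, early KIC above normal pancreas for each gene; bars are exact 95% counting intervals, drawn to at most 9 log2 units, and dotted lines mark 2-fold. Open points have a class at 0 UMIs, set to 3 counts. Smoc2 lies at 2.57 in early KIC and 2.46 in normal pancreas, and Sept4 at 2.69 and 4.49.

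By role, the basement membrane genes included the collagen IV pair. Col4a1 (chromosome 8, 11198423 to 11312826) had 1410 CPM (1340 to 1483) in Cxcl14 fibroblasts and 683 CPM (642 to 726) in Pi16 fibroblasts of early KIC. In normal pancreas the levels were 925 CPM (836 to 1021) and 175 CPM (155 to 196). Its partner Col4a2, whose start the printed Col4a1 window covers, had 827 and 366 CPM in early KIC and 445 and 97 CPM in normal pancreas. Both genes were higher in Cxcl14 fibroblasts in each library, with ratios of 2.06 (1.91 to 2.24) and 2.26 (2.02 to 2.52) in early KIC and 5.30 (4.54 to 6.19) and 4.59 (3.70 to 5.70) in normal pancreas. Col15a1, a collagen of the basement membrane zone, had 516 and 153 CPM in early KIC and 450 and 59.6 CPM in normal pancreas. The smaller ratio in early KIC went with a higher level in Pi16 fibroblasts. Between libraries Col4a1 was 1.52-fold (1.36 to 1.71) higher in Cxcl14 fibroblasts of early KIC and 3.91-fold (3.43 to 4.47) higher in Pi16 fibroblasts. Of 14 basement membrane genes measured in early KIC, 4 were higher in Cxcl14 than in Pi16 fibroblasts (median log2 ratio 0.29). The 1 that was lower there was Col4a5, another collagen IV gene. Of 13 measured in normal pancreas, 5 were higher and 0 lower (median 0.52).

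Genes of adventitial fibroblasts that the rule did not use were lower as a group. In early KIC 14 of 18 measured were lower in Cxcl14 fibroblasts and 0 higher, with a median log2 ratio of -1.92, and in normal pancreas 16 of 19 were lower and 0 higher, with a median of -2.39. Fbn1, which encodes fibrillin-1 of elastic fibres, had 376 CPM in Cxcl14 fibroblasts and 1331 CPM in Pi16 fibroblasts of early KIC, and 301 and 1286 CPM in normal pancreas. Cd248, the membrane protein endosialin, was 4.21-fold lower in early KIC and 3.93-fold lower in normal pancreas. Igfbp5, a binding protein of insulin-like growth factors, was 4.03-fold (3.07 to 5.35) lower in early KIC and 16.1-fold (10.1 to 27.3) lower in normal pancreas. Inflammatory fibroblast genes were also more often lower than higher. Of 17 measured in early KIC 0 were higher and 8 lower, Saa3 and Il33 among them (median log2 ratio -0.96), and of 14 in normal pancreas 1, Il1r1, was higher and 6 were lower (median -0.90).

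Growth factor genes pointed both ways. Of 26 measured in early KIC, 6 were higher and 6 lower in Cxcl14 fibroblasts (median log2 ratio 0.07), and of 25 in normal pancreas 10 were higher and 5 lower (median 0.93). Bmp4 had 104 CPM in Cxcl14 fibroblasts and 26.8 CPM in Pi16 fibroblasts of early KIC, and 193 and 44.6 CPM in normal pancreas. Rspo3, an enhancer of Wnt signalling, was 2.81-fold (2.08 to 3.83) higher in early KIC and 3.77-fold (2.76 to 5.15) higher in normal pancreas. Igfbp3 had 227 and 99.1 CPM in early KIC and 195 and 23.5 CPM in normal pancreas. Here too the level in Cxcl14 fibroblasts was close between libraries while that in Pi16 fibroblasts was higher in early KIC.

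Among preadipocyte and lipid-handling genes, 4 of 14 were higher and 1 lower in early KIC (median log2 ratio 0.52) and 6 of 13 higher and 2 lower in normal pancreas (median 0.66). The lipid carrier gene Apoe had 4644 CPM in Cxcl14 fibroblasts and 2136 CPM in Pi16 fibroblasts of early KIC, and 4599 and 1052 CPM in normal pancreas. Apod, another lipid carrier gene, had 104 and 21.4 CPM in early KIC and 172 and 13.8 CPM in normal pancreas. Fabp4, a fatty acid binding protein of adipocytes and capillaries, was 1.32-fold (0.994 to 1.77) higher in early KIC and 2.57-fold (1.75 to 3.75) higher in normal pancreas, and stood at 226 CPM outside the gate in early KIC. Contractile genes were split. Of 11 myofibroblast genes measured in early KIC, 2 were higher in Cxcl14 fibroblasts, Myl9 and Mylk, and 3 lower (median log2 ratio -0.23). Of 7 measured in normal pancreas, 1 was higher, Myl9, and 2 were lower (median -0.72). The myosin kinase gene Mylk was 5.93-fold higher in Cxcl14 fibroblasts of early KIC. In normal pancreas Mylk was under the minimum of UMIs for a ratio, so it is not among those measured. Acta2, the smooth muscle actin that marks myofibroblasts, was at 12.2 CPM in Cxcl14 fibroblasts of early KIC, against 28.8 CPM in Pi16 fibroblasts, and in normal pancreas it had 0 UMIs in Cxcl14 fibroblasts. Of the pericyte or stellate list, Rgs5, Des and Ndufa4l2 were measured in early KIC and all 3 were higher (median log2 ratio 1.8). In normal pancreas 1 of 2, Ndufa4l2, was higher and 0 lower (median 1.6). Of all genes 5.55% and 7.11% were higher. The part of such cells in these ratios was not tested.

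Between conditions, Cxcl14 fibroblasts of early KIC carried more RNA of acute-phase, complement and protease-inhibitor genes than those of normal pancreas, and less RNA of clock genes, of some matrix genes and of Inmt. Of 6636 genes measured, 574 (8.65%) were higher and 359 (5.41%) lower in early KIC. The median log2 ratio of all genes was -0.01. In Pi16 fibroblasts 7.99% of genes were higher and 5.49% lower. The highest ratios belonged to genes of other cells. Of the 12 genes named as furthest up, Sst, Ppy and Pyy encode hormones of islet cells, Reg2 and Reg3b secreted pancreatic proteins, and Lyz2, Cd74, Ccl6, C1qb and Ccl4 are genes of macrophages and other immune cells. Spp1, which encodes osteopontin, was also among them. Each of these 11 was higher outside the gate in early KIC than in the Cxcl14 fibroblasts. Cd74, for example, had 559 CPM in Cxcl14 fibroblasts of early KIC and 14.1 CPM in those of normal pancreas, against 7053 and 1915 CPM outside the gate. Spp1 had 429 and 2.35 CPM in Cxcl14 fibroblasts, against 3074 and 80.8 CPM outside. The part of RNA from other cells in these differences was not tested. Reads of Reg2 and Reg3b may be shared with close relatives of their family, so their values are uncertain.

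Saa3 was the exception among the 12. This acute-phase protein gene (chromosome 7, 46711998 to 46715700) had 156 UMIs in Cxcl14 fibroblasts of early KIC, 147 CPM (125 to 172), and 0 UMIs in those of normal pancreas. It was at least 20.8-fold higher in early KIC. Outside the gate it had 58.1 CPM in early KIC and 0 in normal pancreas. In Pi16 fibroblasts it had 433 CPM in early KIC and 0 UMIs in normal pancreas. Within early KIC it was thus 2.94-fold (2.47 to 3.53) lower in Cxcl14 than in Pi16 fibroblasts. Cxcl14 fibroblasts with a Cxcl14 UMI had 236 CPM of Saa3, and those without one 39.5 CPM.

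A condition added after the data were seen required genes to be at least as high in the fibroblasts as outside the gate. It was applied in early KIC for higher genes and in normal pancreas for lower genes. It left 373 (5.62%) higher and 357 (5.38%) lower, from 574 and 359. Outside the gate, acinar enzyme RNA summed to 658528 CPM in normal pancreas and 167773 CPM in early KIC. Other genes thus made up less of the RNA outside the gate in normal pancreas, so the condition was not alike on both sides. Tmem176a and Tmem176b, which overlap on opposite strands of chromosome 6 and encode membrane proteins of intracellular vesicles, were next after Saa3. Tmem176a had 371 CPM (336 to 410) in early KIC and 40.0 CPM (23.3 to 64.1) in normal pancreas, and Tmem176b 565 CPM (520 to 612) and 94.1 CPM (67.3 to 128). In Pi16 fibroblasts they had 98.5 and 151 CPM in early KIC, and 15.1 and 18.1 CPM in normal pancreas. Both genes were higher in early KIC in either kind of fibroblast and higher in Cxcl14 than in Pi16 fibroblasts in either library. Their levels outside the gate in early KIC, 318 and 482 CPM, were not far below those in Cxcl14 fibroblasts.

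C4b, a complement component, had 246 CPM (217 to 278) in Cxcl14 fibroblasts of early KIC and 47.1 CPM (28.8 to 72.7) in those of normal pancreas, a 5.23-fold (3.31 to 8.70) difference. In Pi16 fibroblasts it had 392 and 12.7 CPM. It was thus higher in Cxcl14 than in Pi16 fibroblasts in normal pancreas and lower in early KIC. Timp1, which inhibits matrix metalloproteinases, had 144 CPM in early KIC and 23.5 CPM in normal pancreas, against 611 and 41.5 CPM in Pi16 fibroblasts. Serpina3n, an inhibitor of serine proteases, had 376 and 94.1 CPM in Cxcl14 fibroblasts, against 595 and 69.9 CPM in Pi16 fibroblasts. For C4b, Timp1 and Serpina3n the ratio of early KIC to normal pancreas was larger in Pi16 fibroblasts, at 31.0-fold, 14.7-fold and 8.52-fold, than in Cxcl14 fibroblasts. The difference between the classes was not tested.

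Other genes in this group had few UMIs. Rdh10, which makes retinal on the way to retinoic acid, had 87 UMIs in early KIC and 3 in normal pancreas, a ratio of 11.6 (3.85 to 57.4). Col6a5, a collagen VI chain, had 39 and 1 UMIs, a ratio of 15.6 (2.64 to 632). Abhd2, a lipid hydrolase, was 5.65-fold (2.98 to 12) higher. Fbn2 (fibrillin-2), Kng2 (a kininogen) and Hp (haptoglobin) had 38, 35 and 33 UMIs in early KIC and 0 in normal pancreas, which puts them at least 5.07-fold, 4.67-fold and 4.41-fold higher. With every barcode thinned to 1000 UMIs, normal pancreas still had 0 UMIs of Kng2 and Hp, and 3 counts over its much smaller total then exceed the level in early KIC, so that no bound can be given at that depth. Of the 8 of these 12 genes that have a promoter window, Saa3 and Kng2 hold TTGCNNAA on either strand. Over all genes with a window 12.2% hold it, and 10.8% of 32851 windows do. In Saa3 the match begins 99 bases before the annotated start.

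**Figure D5:**
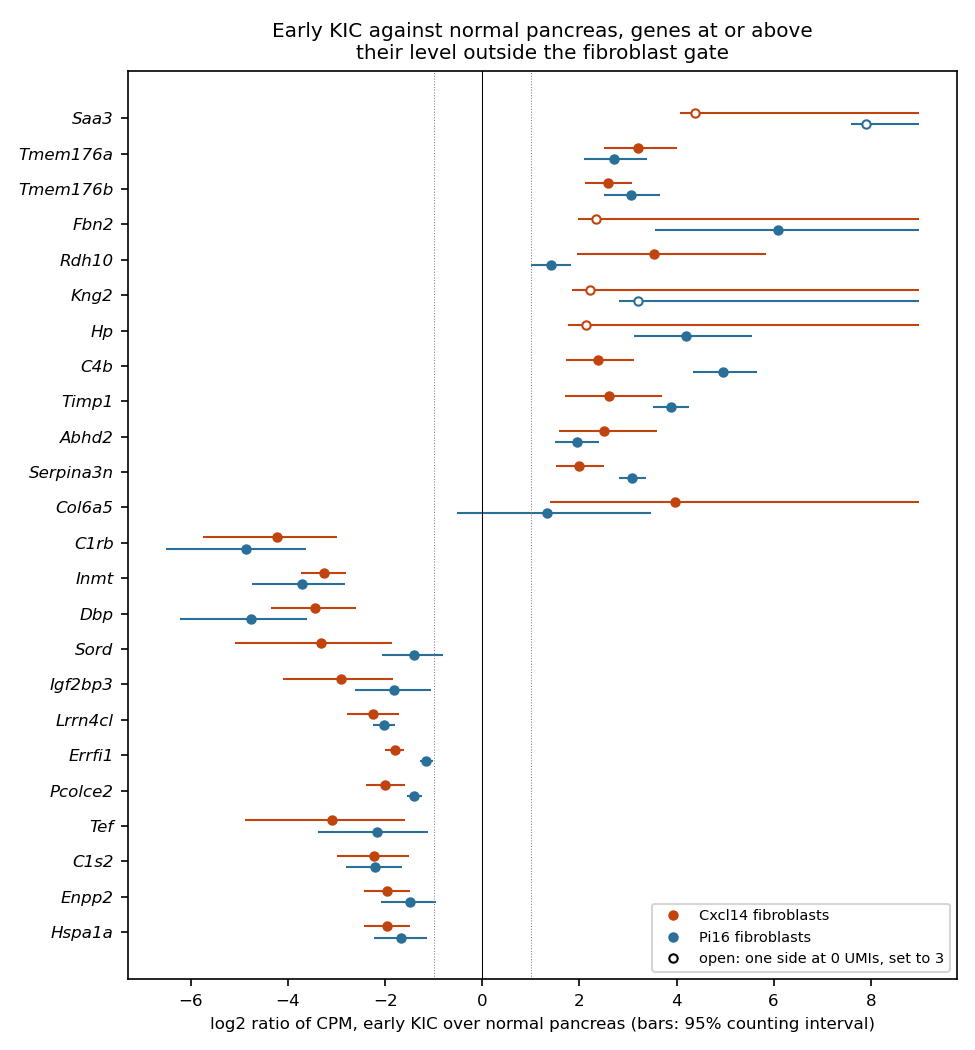
Log2 ratio of CPM in early KIC over normal pancreas for genes at or above their level outside the gate, Cxcl14 fibroblasts above Pi16 fibroblasts for each gene; bars are exact 95% counting intervals, drawn to at most 9 log2 units, and dotted lines mark 2-fold. The level outside the gate is that of early KIC for the higher genes and of normal pancreas for the lower ones. Open points have a library at 0 UMIs, set to 3 counts. C4b lies at 2.39 in Cxcl14 and 4.96 in Pi16 fibroblasts, and Inmt at -3.25 and -3.71.

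The genes furthest down in early KIC included metabolic enzymes and clock-controlled factors. Inmt, a methyltransferase of indoleamines, had 48.1 CPM (35.8 to 63.2) in Cxcl14 fibroblasts of early KIC and 459 CPM (397 to 528) in those of normal pancreas, 9.55-fold (6.98 to 13.3) lower. In Pi16 fibroblasts it had 7.37 and 96.3 CPM. Inmt was thus higher in Cxcl14 than in Pi16 fibroblasts in both libraries while it was lower in early KIC in both classes. Errfi1, a feedback inhibitor of the EGF receptor, had 350 CPM in early KIC and 1219 CPM in normal pancreas. Enpp2, which encodes the lysophospholipase autotaxin, was 3.88-fold (2.80 to 5.42) lower, and Pcolce2, an enhancer of procollagen processing, 3.98-fold (3.04 to 5.25) lower. Sord, Igf2bp3 and Lrrn4cl were 9.99-fold, 7.49-fold and 4.73-fold lower. Hspa1a, a heat-shock protein that also responds to tissue dissociation, had 59.4 CPM in early KIC and 231 CPM in normal pancreas. C1rb and C1s2 were 18.7-fold and 4.69-fold lower, but they have close copies in the mouse genome between which reads could be split, so their values are uncertain.

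Clock genes were lower in early KIC. Of 11 measured, 6 were lower and 0 higher, with a median log2 ratio of -1.08, and in Pi16 fibroblasts 6 of 13 were lower and 1 higher (median -0.88). Dbp, a transcription factor under direct control of the clock, had 14.1 CPM in early KIC and 153 CPM in normal pancreas, 10.8-fold (6.10 to 20.4) lower. Outside the gate it had 24.3 CPM in early KIC and 9.96 CPM in normal pancreas. Its relative Tef had 4.71 and 40.0 CPM in Cxcl14 fibroblasts, and the repressor Nr1d1 31.1 and 73.0 CPM. Arntl, which encodes the activator Bmal1, had 12.2 and 7.06 CPM, under the minimum of 20 UMIs for a ratio, so it is not among those measured. The time of day at which tissue was taken is not stated in the labels.

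Of chemokine genes, 5 of 11 were higher and 1 lower (median log2 ratio 0.64). Ccl2, which attracts monocytes, had 730 CPM (679 to 783) in Cxcl14 fibroblasts of early KIC and 266 CPM (219 to 320) in those of normal pancreas, against 855 and 904 CPM in Pi16 fibroblasts. In normal pancreas Ccl2 was thus 3.40-fold (2.81 to 4.15) lower in Cxcl14 than in Pi16 fibroblasts, and in early KIC 1.17-fold (1.07 to 1.28) lower. Ccl7, a related monocyte chemokine, had 1283 and 577 CPM in Cxcl14 fibroblasts. The neutrophil chemokine Cxcl2 had 664 and 96.5 CPM, but its level outside the gate was 3697 CPM in early KIC and 407 CPM in normal pancreas. Ccl8 was also higher outside the gate in early KIC, at 360 CPM against 60.3 CPM in Cxcl14 fibroblasts. Cxcl10, a chemokine induced by interferon, had 25.4 CPM in Cxcl14 fibroblasts of early KIC and 0 UMIs in those of normal pancreas, and it too was higher outside the gate in early KIC, at 39.3 CPM. Ccl11, the eosinophil chemokine among the markers, was the member that was lower. Cxcl12, which holds cells bearing the receptor Cxcr4, had 396 and 447 CPM, 1.13-fold (0.947 to 1.34) lower.

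Few genes of the large matrix lists were past 2-fold. Of 24 fibrillar collagen and elastic fibre genes 2 were higher and 1 lower (median log2 ratio 0.19), and of 13 basement membrane genes 0 were higher and 1 lower (median 0.19). In Pi16 fibroblasts 7 of 24 and 4 of 14 were higher and 0 lower. Fn1, which encodes fibronectin, had 746 CPM in Cxcl14 fibroblasts of early KIC and 332 CPM in those of normal pancreas. The elastic fibre protein Fbln1 had 208 and 607 CPM in Cxcl14 fibroblasts, 2.92-fold (2.43 to 3.50) lower, and 238 and 203 CPM in Pi16 fibroblasts. Mgp, an inhibitor of calcification, was likewise 3.10-fold (2.79 to 3.45) lower in Cxcl14 fibroblasts and 1.09-fold (0.976 to 1.22) higher in Pi16 fibroblasts. Among matricellular genes 5 of 14 were higher and 2 lower (median 0.27). Postn (periostin) had 138 and 51.8 CPM, Spon1 161 and 73.0 CPM, and Tnc (tenascin C) 28 UMIs and 1 UMI. Spp1, described above, and Thbs2 were the others. Ctgf, a CCN family member, had 21.7 and 70.6 CPM.

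Of proteases and their inhibitors 3 of 18 were higher and 2 lower (median log2 ratio -0.13). Mmp3, a metalloproteinase known as stromelysin, had 103 CPM in early KIC and 35.3 CPM in normal pancreas, and it was nearly absent outside the gate, at 4.09 and 0.343 CPM. Serpinf1, an inhibitor of vessel growth, had 407 and 948 CPM. Of complement genes 2 of 8 were higher, C4b and Cfb, and 1 lower, C1rb (median 0.26). Of growth factor genes 3 of 24 were higher and 2 lower (median 0.09). Igf1, the insulin-like growth factor, had 480 CPM in Cxcl14 fibroblasts of early KIC and 212 CPM in those of normal pancreas, and the midkine gene Mdk, a relative of Ptn, 82.0 and 30.6 CPM. In Pi16 fibroblasts 10 of 25 growth factor genes were higher and 2 lower (median 0.69).

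Among markers of known tumour fibroblast states, the defining myofibroblast genes were low, and some others were higher in early KIC. Of 15 myofibroblast genes 8 were measured, of which 4 were higher, Tpm1, Cnn2, Mylk and Palld, and 0 lower (median log2 ratio 0.98). Tpm1, an actin-binding tropomyosin, had 137 CPM in early KIC and 58.8 CPM in normal pancreas, and Mylk 91.4 and 21.2 CPM. Palld rests on 24 UMIs in early KIC and 2 in normal pancreas. Acta2 and Tagln, the defining genes, had 13 and 19 UMIs in early KIC and 0 in normal pancreas, under the minimum for a ratio. Pericytes and stellate cells share contractile genes, and the 11 genes of their list summed to 153 CPM in Cxcl14 fibroblasts of early KIC and 108 CPM in those of normal pancreas, with 1 and 3 of them at 0. Of 3 measured, Rgs5 and Des were higher in early KIC and 0 lower (median 1.17). The pericyte gene Rgs5 had 24 UMIs in early KIC and 0 in normal pancreas, against 108 CPM outside the gate in early KIC. Myh11, a smooth muscle myosin, was at 0 in both. The part of such cells in the contractile genes was not tested. Of 15 measured inflammatory fibroblast genes 4 were higher, Saa3, Hp, Il33 and Ly6c1, and 0 lower (median 0.28). Il33, an alarmin cytokine, had 89.5 and 42.4 CPM, and Ly6c1 370 and 165 CPM, both below their levels in Pi16 fibroblasts of early KIC, 301 and 1231 CPM. All 5 measured genes of MHC class II presentation were higher (median 3.46), and each was higher outside the gate in early KIC. H2-Ab1, for example, had 259 and 23.5 CPM in Cxcl14 fibroblasts, against 2718 and 715 CPM outside. Of 7 measured interferon response genes 0 were higher and 0 lower (median 0.14). Of 11 TGF-beta genes 0 were higher and 2 lower (median -0.26), and of 13 genes of hypoxia and glycolysis 1 was higher and 2 lower (median -0.03). Of 15 dissociation stress genes 2 were lower, Hspa1a and Hspa1b, and 0 higher (median -0.40). Of 12 measured mesenchymal transcription factors 2 were lower, Osr1 and Barx1 (median -0.53). Of 15 cell cycle genes 3 were measured and 1, Stmn1, was higher, at 26.4 and 4.71 CPM in Cxcl14 fibroblasts and 84.0 CPM outside the gate in early KIC. Of 13 preadipocyte and lipid-handling genes 3 were higher, Ebf2, Fabp5 and Cd36, and 0 lower (median 0.01). The transcription factor gene Ebf2 had 91.4 CPM in Cxcl14 fibroblasts of early KIC and 44.7 CPM in those of normal pancreas. Fabp5 and Cd36 were higher outside the gate in early KIC, at 146 and 106 CPM, than in Cxcl14 fibroblasts, where Cd36 was at 22.6 CPM.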

How the data were processed

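The deposited files hold UMI counts per gene and cell barcode for 27998 genes, which the authors produced using Cell Ranger 2.1.1 and GRCm38, per the submitters' processing notes. The sources used here name no annotation release, use of strand or number of reads per UMI. From these counts the classes were formed by fixed sums of UMIs, without clustering. The members, gene lists and alternatives were chosen with earlier results of these data known. Doublets were not removed. UMIs were summed per class and library, scaled to CPM and compared as ratios. A gene needed 20 UMIs over both sides and counted as higher or lower at 2-fold. A side at 0 was set to 3 counts over the class. Named genes were the 12 highest and 12 lowest by the bound of the exact 95% interval nearest to 1 (against Pi16 fibroblasts, the smaller bound of both libraries), outside rule, sex-linked, mitochondrial, haemoglobin, acinar, ribosomal, Gm and Rik genes, beside markers and list members. The set that had to reach its level outside the gate, and genes named for Cxcl14 detection, were chosen after their values were seen. Of 28 lists, 9 are markers of other classes, and 7 list genes are not in the table. Some items are not reported here. With 1 library per group no test was run. The calculation of ratios and intervals was checked on simulated Poisson sums, with changes set only in genes with many UMIs. These sums follow the model of the intervals, so the check does not cover spread between cells or RNA from other cells. Ratios assume that both sides were counted alike, and deeper barcodes of normal pancreas give narrower intervals per barcode. Gene positions came from GENCODE on GRCm38, and promoter windows from RefSeq on GRCm38.p6. Python 3.11.15, numpy 2.4.6, scipy 1.17.1, pandas 2.3.3 and matplotlib 3.10.9 were used.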

Additional observations from a re-analysis of the deposited data

Results flagged for a closer look

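Among the genes described, 2 lay at least 2-fold apart from normal pancreas in opposite directions in the fibroblast classes. Fgf7, a growth factor for epithelial cells, had 34.9 CPM in Cxcl14 fibroblasts of early KIC and 70.6 CPM in those of normal pancreas (log2 ratio -1.02), and in Pi16 fibroblasts 48.2 and 17.5 CPM (log2 ratio 1.47). The difference of the log2 ratios was -2.48. Des, which encodes the intermediate filament desmin, had 42.4 CPM in Cxcl14 fibroblasts of early KIC and 18.8 CPM in those of normal pancreas (log2 ratio 1.17), and in Pi16 fibroblasts 12.1 and 31.3 CPM (log2 ratio -1.38). The difference was 2.55. Fgf7 rests on 37 and 30 UMIs in Cxcl14 fibroblasts, and Des on 45 and 8 UMIs. Des is also on the pericyte or stellate list, where Rgs5 had 24 UMIs in Cxcl14 fibroblasts of early KIC and 0 in those of normal pancreas, and the part of such cells was not tested. Neither difference was tested, since each condition has 1 library.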

How the results depend on the processing

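No paired analysis was possible because each group has 1 library. There were 13 alternatives, 2 of them added after the data were seen, each run for the results it can touch: the UMI minimum for counts of genes, the level outside the gate for counts between conditions, and centring and the Xist restriction for early KIC over normal pancreas. The share of Cxcl14 fibroblasts in early KIC was 40.2% with a first gene sum of at least 4 UMIs and 41.7% with thinning to 1000 UMIs. With thinning the genes higher and lower than in Pi16 fibroblasts in both libraries numbered 61 and 108, from fewer UMIs. With at least 50 UMIs per gene they were 97 higher, and 202 genes were higher and 138 lower in early KIC than in normal pancreas. With at least 1 UMI these counts were 991, 1342 and 3370, since a side at 0 is set to 3 counts. Requiring the level outside the gate left 373 higher in early KIC. Signs were compared only for values that were at least 2-fold in the main results. Some single log2 ratios among these changed sign. Against Pi16 fibroblasts of early KIC, Sst was at -1.62 with a gate of 60 per 10000. Without barcodes carrying markers of other classes (509 and 99 Cxcl14 fibroblasts kept) Sst was at -1.76, Ppy at -0.49 and Pyy at -0.77. With thinning, early KIC over normal pancreas was -1.37 for Cmah, -0.094 for Kng2 and -0.48 for Hp, and Cxcl14 over Pi16 fibroblasts in normal pancreas was 0.52 for Sst. Among Cxcl14 fibroblasts with a Cxcl14 UMI, Cmah was at -1.24 and Sst at 0.68 in the same comparisons. In these thinned and Cxcl14-positive values the Cxcl14 fibroblasts of normal pancreas had 0 UMIs of the gene, so that 3 counts over a smaller total set the sign and it is no reversal. The causes of the others were not tested. Restricting to barcodes with Xist and no Y-linked RNA (550 and 67 kept) changed no sign among values that were at least 2-fold in the main results. It moved 19 single values beyond their counting interval and left 77 within it.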
